A study of Rattus norvegicus with 36 samples.

Results

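The genes described here encode proteins that carry out or control translation in rat skeletal muscle: the ribosome rescue factor Pelo, the elongation factors Eef1a1, Eef1a2 and Eef2, and Eif4e, Eif4ebp1 and Eif2s1, which act in initiation. Their probe sets were taken by gene symbol alone, as every probe set that the array's annotation assigns to one of the 7 genes. The 7 genes themselves were chosen with earlier results of these data known. They make up 13 of the 8740 probe sets that are not controls, and 7 of the 4736 genes named by a single symbol. Eef2 had 4 probe sets, Eif4ebp1 had 3 and Eef1a1 had 2, and the other 4 genes had 1 each. All 13 passed the filter on low signals.

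The series examined how rat muscle, with a source labelled "ta", responds to a bout of resistance contractions. RNA was hybridised to 36 Affymetrix rat arrays, either as total RNA or as polysomal RNA, the RNA that sediments with ribosomes. Exercised muscle was taken 1 h after contractions (4 arrays of total RNA and 4 of polysomal RNA, under 2 replicate numbers each) or 6 h after them (8 and 8 arrays, under 4 numbers each). Muscle without contractions was measured as polysomal RNA on 8 arrays under 4 numbers (the polysomal control, described as collected at 1 h) and on 4 arrays under 2 numbers titled as 1hr polysome, although their description names no polysomes. The labels name neither strain, age nor sex of the rats, nor whether a number stands for 1 animal, so that p-values measure only the spread between numbers, which may be technical. The 2 arrays of a number were averaged and count as 1 replicate. Total RNA of uncontracted muscle was not analysed here, so total RNA was compared between times and with polysomal RNA only.

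Translation begins when the cap-binding protein eIF4E, which 4E-BP1 can sequester, brings an mRNA to the ribosome, and when eIF2, with its alpha subunit Eif2s1 as the regulatory site, delivers the initiator tRNA. eEF1A then carries aminoacyl-tRNA to the ribosome and eEF2 moves the ribosome along the mRNA, and mature muscle fibres use the isoform eEF1A2 in place of eEF1A1. Pelota, the product of Pelo, releases ribosomes that stall on an mRNA. The mRNAs of elongation factors are classic members of the class that starts with a C followed by a run of pyrimidines, and translation of this class depends on mTOR.

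The start site sequences of 5 of the genes are shown because that pyrimidine run lies at the very 5′ end of an mRNA and links a gene to this mode of control. Each line gives 20 bases before and 10 bases from the start annotated by RefSeq on the GRCr8 build, 5′ to 3′ along the gene, and capitals mark a C followed by at least 4 more C or T bases.
Pelo, chr2:48532661-48532690, minus strand: gtgggccggcgcgcgaaaacggagaaaagg
Eef1a1, chr8:88225060-88225089, minus strand: ggtagtcgccttggacgttCTTTTTCgcaa
Eef1a2, chr3:188652624-188652653, minus strand: tCCCTCgctcgggtacatctctgcagctgc
Eif4e, chr2:229740733-229740762, plus strand: tcaggagcggttgtgcgatcagatcgatct
Eif2s1, chr6:103405860-103405889, plus strand: gagcccggcgtgggaccctagttcgggatt

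Eef1a1 held such a run of 7 bases and Eef1a2 one of 5 bases, while Pelo, Eif4e and Eif2s1 held none on this strand. In Eef1a1 the run began 1 base before the annotated start, whereas in Eef1a2 it began 19 bases before it. Across 33469 RefSeq promoters, 35.9% held a run somewhere in this window, so that its presence alone is common. A C within 2 bases of the annotated start with at least 4 pyrimidines after it, as in Eef1a1, was found in 7.22%. This share includes runs that began further upstream. Only the gene strand was searched, since the run is a feature of the mRNA.

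Some arrays stood apart from their groups. Both 6 h total RNA arrays of number 3 had beta-actin 3′ to 5′ signal ratios of 9.01 and 11.5, which rise where RNA is degraded or copied incompletely, against 1.01 to 1.58 on the other 6 arrays of that group. The 6 h total RNA arrays of number 4 had ordinary ratios but correlated best, over the tested probe sets, with polysomal arrays. Those of number 3 correlated best with polysomal RNA of 1 h (mean r of 0.847) and with the control titled 1hr polysome (0.845). With their own group the values were 0.837 and 0.836. Array 2bA of the control titled 1hr polysome correlated best with total RNA of 1 h (mean r of 0.932, against 0.906 with its own group). Its label was kept, and the main results that involve these arrays are given with and without them. The total RNA numbers 3 and 4 were set apart partly for their likeness to polysomal arrays, and array 2bA for its likeness to total RNA. Leaving them out thus favours a difference between fractions by the choice itself, and such p-values are not separate support. Of 16 skeletal muscle fibre markers, 13 were on the array and none was at the floor on all arrays. Levels are deposited array signals, in linear units that cannot be compared between probe sets, and a difference is a log2 difference between groups on signals raised to a floor of 129.5. Tests are limma's moderated test with Benjamini-Hochberg adjustment over 6707 probe sets, and a probe set is called when its adjusted p is below 0.05.

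Pelo, the rescue factor, had its highest signals in polysomal RNA 6 h after contractions. All 8 arrays of that group read between 1961 and 3400, and none of the other 28 arrays exceeded 1806. The group's geometric mean was 2391, against 564 in the polysomal control, 1054 in total RNA at 6 h, 598 in polysomal RNA at 1 h, 425 in total RNA at 1 h and 359 in the control titled 1hr polysome. In the polysomal control the lowest, median and highest arrays read 444, 570.5 and 730, and in total RNA at 6 h they read 484, 1109 and 1806. The 4 total RNA arrays of 1 h read 334, 470, 606 and 345. At 1 h the polysomal arrays were spread widely, at 166 and 630 for number 1 and 1373 and 886 for number 2. The control titled 1hr polysome read 505, 354, 518 and 178, the last of these being array 2bA.

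**Figure D1:**
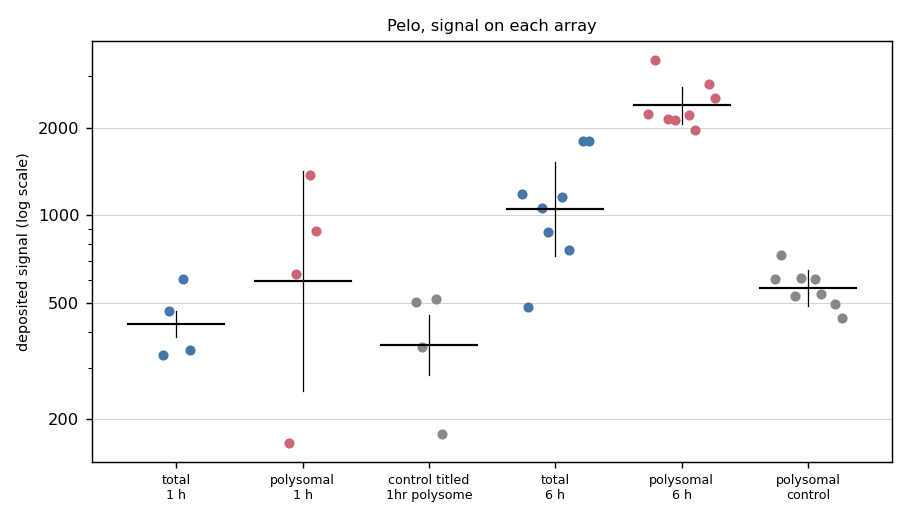
Deposited Pelo signal on each of 36 arrays (log axis) in the 6 groups, with arrays of 1 number beside each other. Horizontal bars are geometric means and vertical lines 1 SD of log2 over the numbers (n = 2 at 1 h and in the control titled 1hr polysome, n = 4 otherwise). The 8 polysomal arrays of 6 h lie at 1961 to 3400, above all other arrays.

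In polysomal RNA, Pelo was 4.24-fold higher 6 h after contractions than in the polysomal control, a log2 difference of 2.08 (SE 0.32, 95% interval 1.40 to 2.77; limma, adjusted p = 0.0105), and the numbers of both groups did not overlap. It was the only one of the 13 probe sets called in this comparison, in which 0.343% of all tested probe sets were called. Against the control titled 1hr polysome instead, the difference was 2.74 (limma, adjusted p = 0.0107). Without polysomal number 4 of 6 h it was 2.03 and just missed the threshold (limma, adjusted p = 0.0508). Within numbers 1 and 2 alone the difference was 1.98 and within numbers 3 and 4 alone it was 2.19, with limma adjusted p of 0.415 and 0.101 at that smaller size.

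Pelo was also 2.27-fold higher in polysomal than in total RNA at 6 h, by 1.18 log2 units (SE 0.32, interval 0.50 to 1.87; limma, adjusted p = 0.0353). The numbers of these groups did not overlap, at 2082 to 2750 in polysomal RNA and 758 to 1801 in total RNA. This call was narrow. It was lost on leaving out any 1 number other than total RNA number 4, with limma adjusted p from 0.0626 to 0.0881 and differences from 1.02 to 1.25. It was also lost with no filter on low signals (limma, adjusted p = 0.0654) and with only these groups in the fit (limma, adjusted p = 0.0694). It was not called within numbers 1 and 2 (limma, adjusted p = 0.0519) or within numbers 3 and 4 (0.86; limma, adjusted p = 0.244). Without total RNA numbers 3 and 4 the difference was 1.48 (limma, adjusted p = 0.0113). The beta-actin 3′ to 5′ ratio also differed between these groups. Polysomal arrays at 6 h had ratios of 2.54 to 4.48, and total RNA arrays outside number 3 had ratios of 1.01 to 1.58. Arrays of the polysomal control had ratios of 1.58 to 3.88, so the ratio did not go with the fraction alone. The GAPDH 3′ to 5′ ratio overlapped between the polysomal and these total RNA arrays of 6 h, at 0.0702 to 1.3 and 0.538 to 1.09. In the polysomal control the GAPDH ratio ran from 0.0374 to 1.19. The part of either ratio in the Pelo differences and in that of Eef1a2 was not tested. In total RNA itself, Pelo read 2.48-fold higher at 6 h than at 1 h, a difference of 1.31 (SE 0.39) that did not pass over all probe sets (limma, adjusted p = 0.482), although the numbers did not overlap. It was 1.01 without total RNA numbers 3 and 4 (limma, adjusted p = 0.469). The 1 h and 6 h arrays were separate sets in the titles, and what else differed between these sets was not tested.

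At 1 h, Pelo showed no called difference. Polysomal exceeded total RNA by 0.49 (interval -0.48 to 1.46; limma, adjusted p = 0.689) and the control titled 1hr polysome by 0.74 (interval -0.23 to 1.71; limma, adjusted p = 1), or by 0.35 without array 2bA. Polysomal RNA of 6 h read 4-fold that of 1 h (log2 interval 1.16 to 2.84, SE 0.39; limma, adjusted p = 0.236). This difference rested on the 2 numbers of 1 h: on leaving out 1 number at a time it ran from 1.12 without number 1 of 1 h (limma, adjusted p = 0.538) to 2.88 without number 2 (limma, adjusted p = 0.00857), where the lone number left is assumed to vary like the other groups. The change from 1 h to 6 h in the polysomal minus total difference was 0.69 (interval -0.50 to 1.88; limma, adjusted p = 0.867), or 0.99 without total RNA numbers 3 and 4 (limma, adjusted p = 0.724), so the 2 times were not shown to differ in this respect.

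Pelo lies within the span of Itga1, the integrin alpha-1 gene, on the same strand in RefSeq, and Itga1 was therefore read beside it. Itga1 also exceeded total RNA in the polysomal fraction at 6 h, by 1.43 (SE 0.40; limma, adjusted p = 0.0377), a call lost without total RNA numbers 3 and 4 (1.35; limma, adjusted p = 0.0786). Its difference was 1.91 within numbers 1 and 2 (limma, adjusted p = 0.000829) and 0.95 within numbers 3 and 4 (limma, adjusted p = 0.0536). In polysomal RNA at 1 h Itga1 averaged 689, below its 6 h level as for Pelo, and in the control titled 1hr polysome 562. Between polysomal RNA at 6 h and the polysomal control, however, Itga1 did not follow Pelo. The geometric mean of Itga1 was 1129 in polysomal RNA at 6 h and 1244 in the polysomal control, a difference of -0.14 (limma, adjusted p = 1). Which transcript each probe set reads was not tested.

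**Figure D2:**
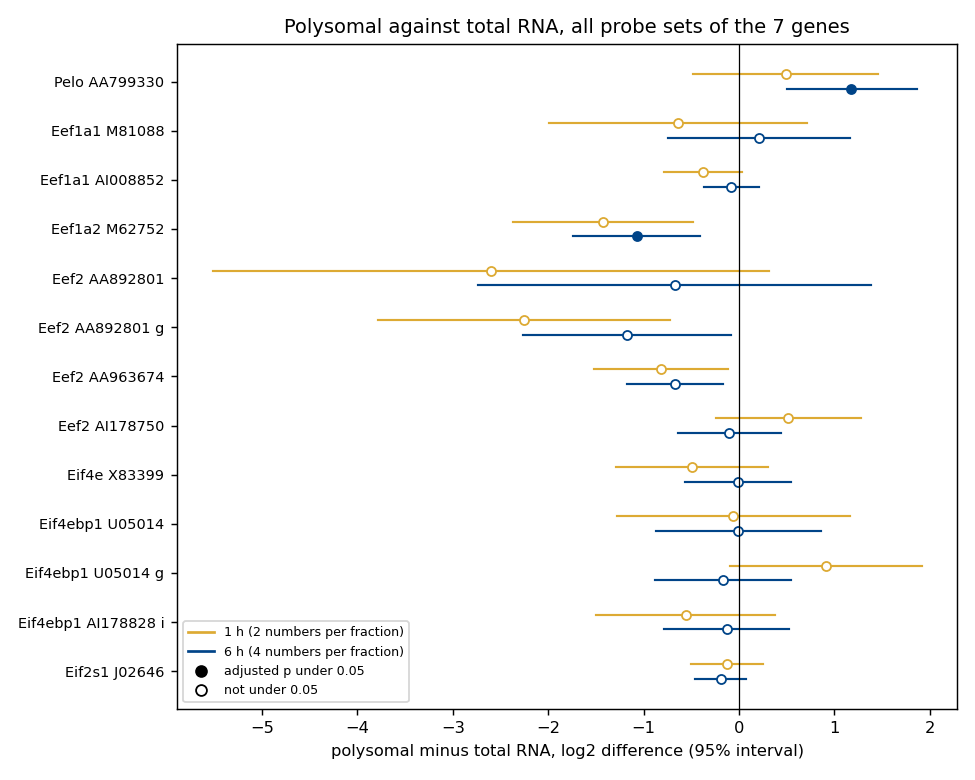
Polysomal minus total RNA log2 difference for the 13 probe sets at 1 h (2 numbers per fraction) and 6 h (4 numbers per fraction). Points are limma estimates and lines 95% intervals. Filled points have an adjusted p below 0.05, which at 6 h applied to Pelo (1.18) and Eef1a2 (-1.07) and at 1 h to none.

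Across the 13 probe sets, 2 were called between polysomal and total RNA at 6 h, Pelo higher and Eef1a2 lower, in a comparison in which 8.77% of all tested probe sets were called. Set against that background, 2 of 13 is not a result about these genes as a group. Their median difference was -0.13, against -0.16 over all tested probe sets. At 1 h none of the 13 was called by limma, and 0.388% of all tested probe sets were called. An unadjusted limma p below 0.05 was reached by 3 of the 13 and by 1061 of the 6707 tested probe sets.

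Eef1a2, the elongation factor isoform of mature muscle, was lower in polysomal than in total RNA. Total RNA at 1 h read 19367, 22989, 15590 and 21423, and the polysomal arrays read 9258, 8148, 6008 and 6286. At 6 h the 4 total RNA arrays of numbers 1 and 2 read 17871 to 20115, those of number 3 read 6880 and 11659 and those of number 4 read 14132 and 14267. The 8 polysomal arrays of 6 h read 4944 to 9446, and only 1 total RNA array, of number 3, lay in that range. The difference at 6 h was -1.07 (SE 0.31, interval -1.74 to -0.41; limma, adjusted p = 0.0456), 2.11-fold. It was -1.43 at 1 h (SE 0.44; limma, adjusted p = 0.14), 2.69-fold and without overlap.

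The 6 h call for Eef1a2 held on leaving out total RNA number 3 or number 4, and was lost on leaving out any other single number, with differences from -1.19 to -0.95 and limma adjusted p from 0.0576 to 0.118. It was also lost under 75th percentile scaling (-0.92; limma, adjusted p = 0.116), with a floor at the 20th percentile (limma, adjusted p = 0.0557), with no filter (limma, adjusted p = 0.0804) and with only these groups in the fit (limma, adjusted p = 0.0909). It was -1.64 within numbers 1 and 2 (limma, adjusted p = 0.00885), -0.51 within numbers 3 and 4 (limma, adjusted p = 0.363), and -1.45 with both of these total RNA numbers left out (limma, adjusted p = 0.0105). No difference was called within polysomal RNA. The polysomal control averaged 7000 and polysomal RNA at 6 h 6958, a difference of -0.01 (interval -0.68 to 0.66; limma, adjusted p = 1). In the control titled 1hr polysome, array 2bA read 24418, at the level of total RNA, and the other 3 arrays read 5937 to 10988.

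Eef2, the translocase, gave different patterns by probe set. On rc_AA892801_g_at, 9 arrays read 3598 to 5788 and the remaining 27 read 642 to 1151, with nothing between. The 9 were all 4 total RNA arrays of 1 h, the 4 total RNA arrays of numbers 1 and 2 at 6 h, and array 2bA of the control titled 1hr polysome. The total RNA arrays of numbers 3 and 4 at 6 h read 731 to 1059, within the polysomal range. The overlapping set rc_AA892801_at divided the arrays alike, with 3441 to 5581 on the 8 total RNA arrays of the high class, 2932 on array 2bA, and 121 to 1361 elsewhere. These 2 probe sets correlated with r of 0.93 over the 18 replicates, given as a description, since the replicates share fractions and array sets.

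**Figure D3:**
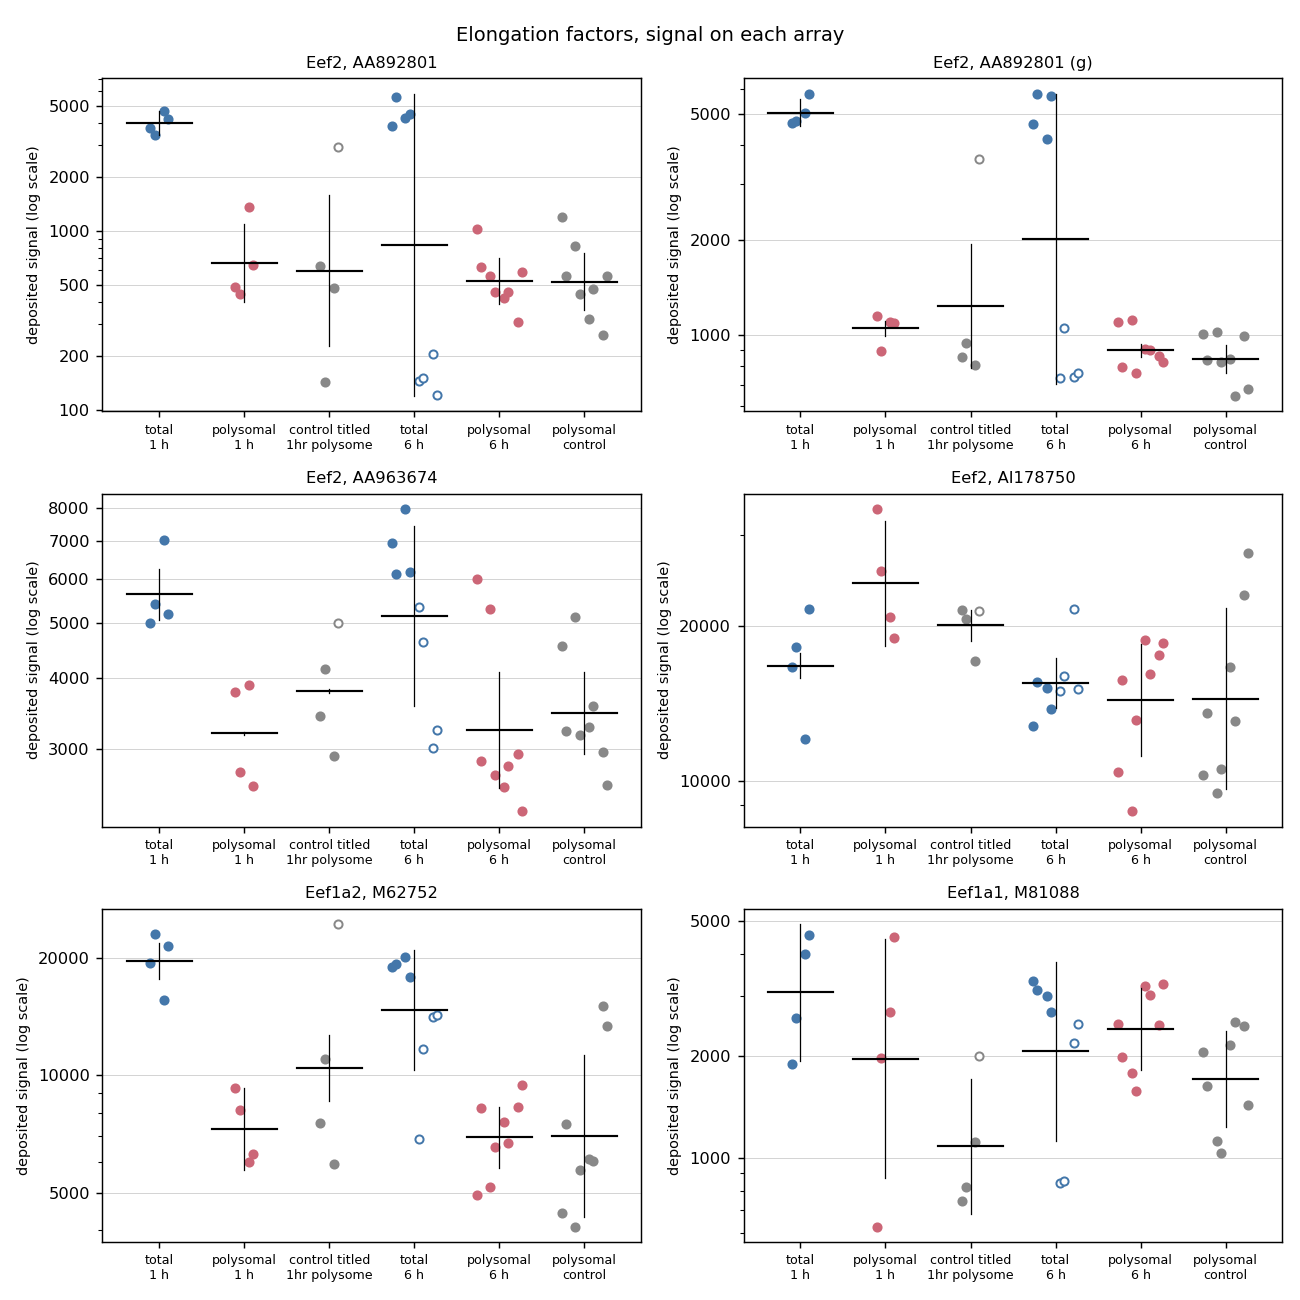
Deposited signal on each array (log axes) for the 4 Eef2 probe sets, Eef1a2 and the brighter Eef1a1 probe set. Open circles are the 6 h total RNA arrays of numbers 3 and 4 and array 2bA of the control titled 1hr polysome, bars are geometric means, and vertical lines 1 SD of log2 over 2 or 4 numbers. In the AA892801 panels the open total RNA points lie with or below the polysomal arrays and array 2bA lies near the total RNA arrays.

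The 9 high arrays had beta-actin 3′ to 5′ ratios of 1.01 to 1.62 and the 27 low ones 1.09 to 11.5, and 5 low arrays had ratios of at most 1.62. These 5 included both 6 h total RNA arrays of number 4. Whether RNA quality, the fraction on the array or the probe set's own behaviour set the signal was not tested.

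**Figure D4:**
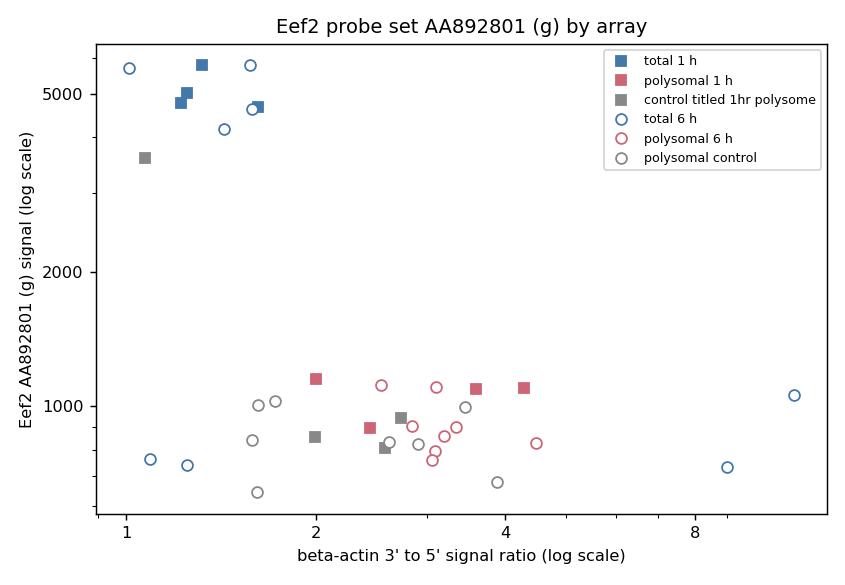
Signal of Eef2 probe set rc_AA892801_g_at against the beta-actin 3′ to 5′ ratio on each of 36 arrays (both axes log), with total RNA in blue, polysomal RNA in red and control arrays in grey. The 9 arrays at 3598 to 5788 have ratios of at most 1.62, and the 2 blue circles at bottom left are the 6 h total RNA arrays of number 4.

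The Eef2 differences between fractions therefore rested on which total RNA numbers were used. With all numbers at 6 h, rc_AA892801_g_at differed by -1.17 (SE 0.51; limma, adjusted p = 0.157) and rc_AA892801_at by -0.67 (SE 0.97; limma, adjusted p = 0.68), with overlapping numbers. Without total RNA numbers 3 and 4 these became -2.48 (limma, adjusted p = 6.82e-06) and -3.11 (limma, adjusted p = 0.000826). Within numbers 3 and 4, by contrast, they were 0.10 (limma, adjusted p = 0.828) and 1.48 (limma, adjusted p = 0.0848). Since total RNA numbers 3 and 4 were set apart partly for resembling polysomal arrays, the p-values without them are not separate support. At 1 h both sets read lower in polysomal RNA without overlap, by -2.25 (SE 0.72; limma, adjusted p = 0.15) and -2.60 (SE 1.37; limma, adjusted p = 0.382).

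Another set, rc_AA963674_at, differed in the same direction by less. It averaged 5162 in total and 3234 in polysomal RNA at 6 h, a difference of -0.67 (SE 0.23; limma, adjusted p = 0.0858), or -1.06 without total RNA numbers 3 and 4 (limma, adjusted p = 0.00256). At 1 h its difference was -0.82 (SE 0.33; limma, adjusted p = 0.242). The brightest set, rc_AI178750_at, did not share the pattern. It read 12064 to 21590 in total RNA of both times and 8750 to 33669 in polysomal RNA, with differences of -0.10 at 6 h (interval -0.64 to 0.44; limma, adjusted p = 0.816) and 0.52 at 1 h (interval -0.24 to 1.28; limma, adjusted p = 0.537). Its correlation with the other Eef2 sets ran from -0.39 to -0.07. No single direction can thus be given for Eef2.

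With total RNA numbers 3 and 4 left out, 5 of the 13 probe sets were called at 6 h: Pelo higher, and Eef1a2 and 3 of the 4 Eef2 sets lower. The background rose as well, to 21.9% of all tested probe sets. Neither Eef2 nor Eef1a1 was called between polysomal RNA at 6 h and the polysomal control, where the Eef2 differences ran from -0.11 to 0.09 (limma, adjusted p = 1 for each). Total RNA of 1 h exceeded the control titled 1hr polysome on 10 of the 13 sets, with 0 called by limma and a background of 0.0745%. An unadjusted limma p below 0.05 was reached by 2 of the 13 and by 745 of the 6707 tested probe sets. Leaving out array 2bA of this control together with the 6 h total RNA numbers 3 and 4 gave 4 calls, all higher in total RNA: Eef1a2, Eef1a1 M81088_at and both rc_AA892801 sets. In that fit 13.9% of all tested probe sets were called. The 6 h arrays are not in this comparison and entered it only through the shared estimate of the spread. With array 2bA alone left out, none of the 13 was called, beside 3.01% of all tested probe sets.

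Eef1a1, the isoform of growing and non-muscle cells, was measured well by 1 set. M81088_at read 1895 to 4546 in total RNA of 1 h and 627 to 4499 in polysomal RNA of 1 h. At 6 h, total RNA read 845 and 855 for number 3 and 2185 to 3326 for the other numbers, and polysomal RNA read 1581 to 3259. The polysomal minus total difference was 0.21 at 6 h (interval -0.74 to 1.17; limma, adjusted p = 0.779) and -0.64 at 1 h (interval -1.99 to 0.71; limma, adjusted p = 0.716). It was -0.65 within numbers 1 and 2 and 1.08 within numbers 3 and 4 at 6 h, opposite in sign. The second set, rc_AI008852_at, was above the floor on 4 arrays only, 3 of total RNA at 1 h and 1 at 6 h, the highest at 267.

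The initiation genes showed no called difference in any of the 10 comparisons. Eif4e, the cap-binding protein, read 735.8 to 1069 in total RNA of 1 h and 373 to 720.4 in polysomal RNA of 1 h, which did not overlap, a difference of -0.49 (SE 0.37; limma, adjusted p = 0.591). At 6 h the total RNA arrays of numbers 1 and 2 read 1085 to 1347 and those of numbers 3 and 4 read 426 to 930, and the 8 polysomal arrays read 627 to 1184. The difference at 6 h was -0.01 with all numbers (interval -0.57 to 0.55; limma, adjusted p = 0.992), -0.44 within numbers 1 and 2, and 0.42 within numbers 3 and 4. The 8 polysomal control arrays were close together, at 701 to 903.

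Eif2s1, the alpha subunit of eIF2, varied little. All 36 arrays read between 820 and 1595, and group geometric means lay between 1144 (polysomal RNA at 6 h) and 1308 (total RNA at 6 h). The polysomal minus total difference was -0.19 at 6 h (interval -0.46 to 0.07; limma, adjusted p = 0.338) and -0.12 at 1 h (interval -0.50 to 0.25; limma, adjusted p = 0.848). The intervals concern mRNA, and phosphorylation of the protein, by which eIF2 is controlled, is not measured by the arrays.

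**Figure D5:**
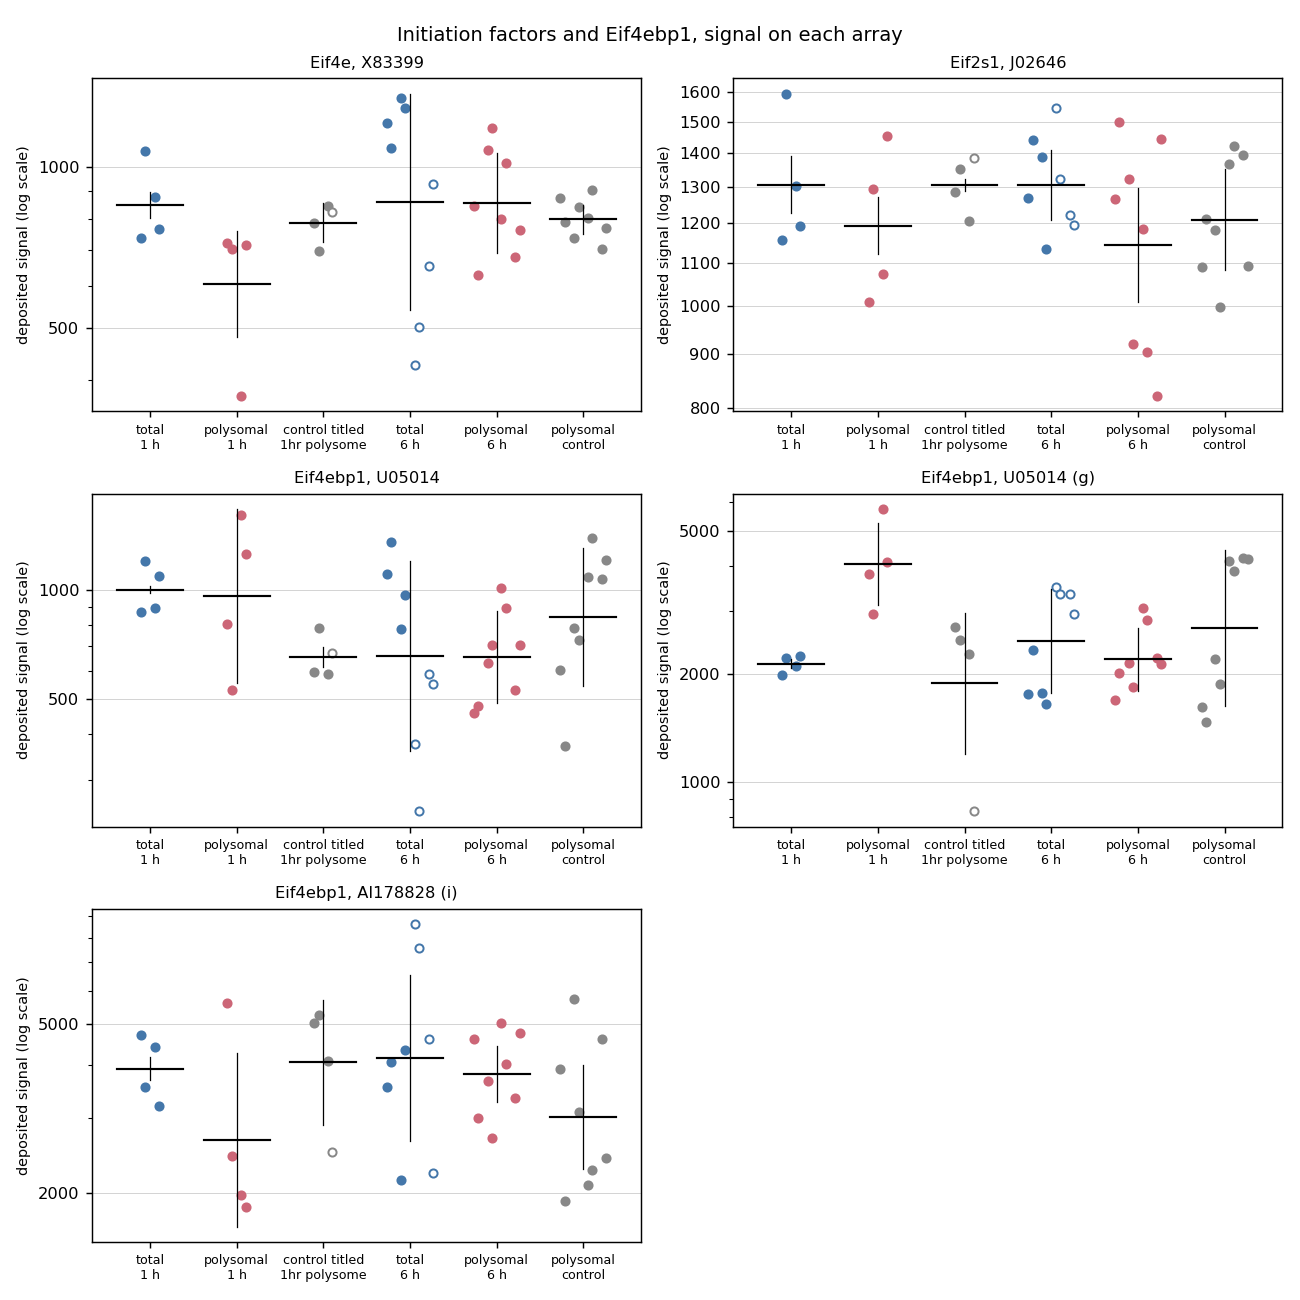
Deposited signal on each array (log axes) for Eif4e, Eif2s1 and the 3 Eif4ebp1 probe sets, with symbols as for the elongation factors. Eif2s1 stays between 820 and 1595 on every array, and the Eif4ebp1 panels differ from one another.

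Eif4ebp1, the inhibitor of Eif4e, was read by 3 probe sets that did not move together, with r over the 18 replicates of 0.32, -0.55 and -0.11. U05014_g_at read 2931 to 5758 in polysomal RNA of 1 h, above 1985 to 2250 in total RNA of 1 h and 830 to 2703 in the control titled 1hr polysome. The differences were 0.91 (SE 0.47; limma, adjusted p = 0.368) and 1.09 (SE 0.47; limma, adjusted p = 1), and the latter was 0.73 without array 2bA. On U05014_at the difference from total RNA at 1 h was -0.06, and on rc_AI178828_i_at it was -0.56 (limma, adjusted p = 0.609). At 6 h the polysomal minus total differences of the 3 sets were -0.17, -0.01 and -0.13. The polysomal control itself was divided on U05014_g_at, with 1468 to 2196 for numbers 1 and 2 and 3874 to 4204 for numbers 3 and 4. Array names differ in form between these pairs of numbers in the 6 h set, and the labels record no other difference.

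The remaining comparisons gave no called member. Between polysomal RNA at 6 h and at 1 h limma called 0 of 13, with 0% of all tested probe sets called. An unadjusted limma p below 0.05 was reached by 3 of the 13 and by 366 of the 6707 tested probe sets. Between polysomal RNA at 1 h and its control limma also called 0 of 13, with 0% called. Here 1 of the 13 and 299 of the 6707 had an unadjusted p below 0.05. Between total RNA at 6 h and 1 h limma called 0 of 13, with 0.0596% called. Of the 13 only 1, the Pelo set, had an unadjusted p below 0.05, beside 517 of the 6707. The 2 control groups likewise gave 0 calls by limma, with 0 at an unadjusted p below 0.05, beside 367 of the 6707. Both tests of a change between 1 h and 6 h gave 0 calls by limma. For polysomal against total RNA, 0 members and 372 of the 6707 had an unadjusted p below 0.05. For polysomal RNA against control, 2 members and 173 of the 6707 did.

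Other genes of the translation machinery were read from lists of related genes, each by its brightest probe set, and the counts stand beside the 8.77% of all tested probe sets called between fractions at 6 h. At 6 h, polysomal and total RNA differed for 1 of 17 initiation factors, Paip1, which modulates poly(A)-binding protein and read 564 against 909 (-0.69, SE 0.15; limma, adjusted p = 0.0153). The median difference of the initiation factors was 0.15, against -0.16 over all tested probe sets. Eef1g, the only other elongation factor on the array, differed by -0.19 (limma, adjusted p = 0.51). Of 4 termination and rescue genes, only Itga1, listed as the gene that spans Pelo, was called.

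Among 18 kinases and regulators of translation, 2 were higher and 1 was lower in polysomal RNA at 6 h, with a median of -0.16. Rictor, a subunit of mTOR complex 2, read 199 in polysomal and 411 in total RNA (-1.05, SE 0.20; limma, adjusted p = 0.00671), and was called within numbers 1 and 2 and within numbers 3 and 4. Pdpk1, the kinase that activates Akt, read 1139 against 563 (1.02; limma, adjusted p = 0.0271). Ddit3, a transcription factor of the integrated stress response, read 1059 against 392 (1.43; limma, adjusted p = 0.0457). Eef2k, the kinase of eEF2, differed by 0.23 (limma, adjusted p = 0.678), Mtor by -0.34 (limma, adjusted p = 0.488) and Rps6kb1, the S6 kinase, by -0.15 (limma, adjusted p = 0.653). Of 6 aminoacyl-tRNA synthetase genes, Aimp2, a scaffold of the synthetase complex, was higher (3913 against 1655; 1.24; limma, adjusted p = 0.0258). Within numbers 1 and 2, Pdpk1 and Aimp2 were called too (limma, adjusted p of 0.00535 and 0.0259), and within numbers 3 and 4 they were not (0.125 and 0.146). Paip1 (limma, adjusted p of 0.0824 and 0.0682) and Ddit3 (0.102 and 0.206) were called in neither pair. Without total RNA numbers 3 and 4, where 21.9% of all tested probe sets were called, 4 initiation factors were higher and 3 lower, 2 regulators were higher and 3 lower, and 1 synthetase gene was higher and 2 lower. None of the listed genes was called between polysomal RNA at 6 h and the polysomal control or between fractions at 1 h.

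Markers of other cell types were compared between the same groups as Pelo. Summed over 10 macrophage markers on the array, polysomal RNA at 6 h read 7649 to 19491 per number, the polysomal control 6748 to 10032 and total RNA at 6 h 6247 to 9671. No marker of any listed cell type was called between polysomal RNA at 6 h and the control. For the 9 macrophage markers tested the comparison gave a median difference of 0.09, and none of the 10 was at the floor on all arrays. The 3 neutrophil markers had a median difference of 0.39, with none called. Between polysomal and total RNA at 6 h, 1 macrophage marker was called, lower in polysomal RNA, with a median of 0.10 over the 9, and the neutrophil median was 1.03 with none called. The part of other cells in the Pelo differences was not tested, and in whole muscle more of a cell type and more RNA per cell cannot be told apart.

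By correlation of log2 signal over the 18 replicates, among 3896 genes, the patterns most like that of Pelo were those of Plin2, a lipid droplet protein (r of 0.92), P2rx5, an ATP-gated channel (0.91), and Rnh1, the ribonuclease inhibitor (0.91). Those most like Eef1a2 were Prpf3 (0.89), Atp1b2 (0.87) and Epn1 (0.86). Eef1a1 ran most like Thbs4 (0.86), Ctsb (0.83) and Fn1 (0.79), and the brightest Eef2 set most like Foxn3 (0.92), Uqcrfs1 (0.90) and Slc25a4 (0.89). For Eif4e the closest were Crem (0.82), Slc16a1 (0.82) and Col3a1 (0.78), for the brightest Eif4ebp1 set Fxyd4 (0.82), Zp1 (0.82) and Ccl20 (0.79), and for Eif2s1 Vdr (0.78), Capn6 (0.76) and Zmym3 (0.74). The replicates share fractions and array sets, and these values are descriptions.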

How the data were processed

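Signals of 36 arrays were used as the authors deposited them, as linear intensity values; which software and scaling gave these intensity values is not given in the sources used here. Trimmed by 2%, the means of the arrays lay between 788 and 798, so no scaling was added. Of 8799 probe sets, 59 controls were left out. Values were raised to the 40th percentile of all values (129.5) and log2-transformed, and the 2 arrays of a number were averaged, giving 18 replicates. A probe set was tested when above the floor on at least 4 arrays. One limma model (3.58.1, R 4.3.3) of the 6 groups, with 12 residual degrees of freedom, gave two-sided p-values, adjusted by Benjamini-Hochberg over 6707 probe sets. The step was tested on simulated data. Arrays measure brightness, and their number limits the precision.

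Genes were named from the platform annotation, in which 7006 probe sets had 1 symbol, 308 several and 1426 none. The text names all 13 member probe sets, the called genes of the pathway lists (at most 3 each way) with a few others chosen after their values were seen, and the 3 genes most correlated with each member. The members, lists and tests were chosen with earlier results of these data known. Start site sequences are from the RefSeq promoter table on GRCr8, and those of the other 2 genes are not reported here. Polysomal and control samples of the 6 h set with the same number deviated together (r of 0.431 to 0.538 for the 4 numbers). For total and polysomal RNA of 6 h the values were lower, at 0.073 to 0.248. The correlation between samples with different numbers was not computed, so a pairing by number was not shown, and the main fit used none. The alternatives were other scalings, floors, filters, a replicate block, single arrays, other sets of groups and left-out numbers or arrays. The exclusion of the arrays that stood apart was chosen after seeing the data, partly on the likeness to the other fraction that the comparisons test.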

Additional observations from a re-analysis of the deposited data

Results flagged for a closer look

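In total RNA at 6 h, the second Eef1a1 probe set, rc_AI008852_at, had 1 number far from the others: number 1 averaged 162.1 and the other 3 numbers were at the floor of 129.5. Since the others all lie at the floor, the gap takes up the whole range by construction, and the usual chance rate for such gaps does not apply. In all, 37 combinations of a probe set and a group were examined. The gap comes from a single array that read 203.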

How the results depend on the processing

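Percentages in brackets give the share of all tested probe sets called in the same fit. Between polysomal and total RNA at 6 h, 2 member probe sets were called in the main fit (8.77%). The count became 1 under 75th percentile scaling (7.33%) and 1 with a floor at the 20th percentile (6.45%), Pelo in both. It was 0 with no filter (4.46%) and 0 with only the groups of the comparison in the fit (1.91%). Within numbers 1 and 2 it was 4, namely Eef1a2 and 3 Eef2 sets but not Pelo (12.7%), and within numbers 3 and 4 it was 0 (7.34%). Without total RNA numbers 3 and 4 it was 5 (21.9%), and 5 when array 2bA was left out too (21.7%). On leaving out 1 number at a time it ran from 0 to 4 (3.68% to 16.4%). Between these fractions at 1 h, the count of 0 (0.388%) became 2 with arrays as samples (5.43%) and 1 with only those groups (0.671%). It was 2 without the arrays that stood apart (8.83%). Against the polysomal control, the count of 1 (0.343%) became 0 within numbers 1 and 2 (0%) and within numbers 3 and 4 (0.0596%). It ran from 0 to 1 on leaving out single numbers (0.104% to 0.567%). Between polysomal RNA at 6 h and 1 h it rose from 0 (0%) to 1 with arrays as samples (0.0895%). Between total RNA of 1 h and its control it rose from 0 to 4 without the arrays that stood apart, while the share over all probe sets rose from 0.0745% to 13.9%. It stayed at 0 without array 2bA alone (3.01%). The arrays that stood apart belong to neither fraction of exercised muscle at 1 h. Between those fractions, leaving them out changed only the shared estimate of the spread, not the differences. The cause of the other shifts was not tested. Within the 6 h set, the replicate block left 2 calls between fractions (7.07%). These were Pelo (1.18, limma adjusted p = 0.0315) and the Eef2 set rc_AA963674_at (limma, adjusted p = 0.037). Eef1a2 lost its call (limma, adjusted p = 0.0774). The replicate block kept the 1 call against the polysomal control, Pelo (limma, adjusted p = 0.0167), where 0.462% of all tested probe sets were called. It kept 0 calls in the other comparisons it could be run for (0% in each). No block could be fitted between the 1 h and 6 h sets. No value called in the main fit changed sign, and none called in an alternative had the opposite sign to the main fit. Between alternatives signs did differ. The Eef2 sets rc_AA892801_g_at and rc_AA892801_at were called lower in polysomal RNA within numbers 1 and 2 (-2.44 and -2.83). Within numbers 3 and 4 they were at 0.10 and 1.48, not called.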
